A study of Arabidopsis thaliana with 18 samples.

Results

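Polysomal RNA was compared with nonpolysomal RNA in wild-type Arabidopsis seedlings, to describe which mRNAs carried many ribosomes and which carried few. All 22746 probe sets of the 6 arrays concerned were taken, with 3 arrays of polysomal RNA (PL) and 3 of nonpolysomal RNA (NP) out of 18 arrays in the series. Each PL array was paired with the NP array of the same plant sample, so that the translation state (TL) is log2 PL minus log2 NP and has 3 values per probe set. The other 12 arrays held total RNA (TC) of wild type and the PL, NP and TC preparations of the rpl24b mutant.

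The wild-type seedlings were 10 to 12 days old and had been raised on agar with Murashige and Skoog salts and 1% sucrose at 22 °C, in a cycle of 16 h light and 8 h dark. Aerial tissue was taken 6 h into the light period, and the 3 replicates were grown at different times. No ecotype is stated for them in the labels. The study's methods place its wild-type plants in Col-0 and speak of the plants grown beside the mutant only as the corresponding wild type. The rpl24b plants carried the allele stv1-1 in the Ws ecotype, were of the same age and grew under the same conditions. Besides RPL24B, genes next to it are missing in that line, which also expresses CAPRICE, a myb protein, from a transgene.

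An mRNA that is being translated usually carries several ribosomes at a time, and such polysomes sediment fast in a sucrose gradient. Free mRNPs, mRNAs bound to ribosomal subunits and mRNAs with a single ribosome stay in the lighter, nonpolysomal part. In plants, ribosome loading changes with light, sugar, drought and hypoxia, and mRNAs of ribosomal proteins (r-proteins) are among those known to respond. The array signals are log2 values from RMA, which puts the arrays on a common scale. A TL of 0 is thus close to the loading of a typical mRNA on these arrays, and it does not mean equal amounts of RNA in both fractions.

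Transcripts at the labelled tissue's defining markers were read in total RNA of wild type. RCA, the activase of Rubisco and the only green leaf marker of 7 that was named here, had a TC signal of 13.92 ± 0.01 (SD, n = 3). Of the 7 root markers 3 were named. EXPA7 and EXPA18, expansins of root hairs, had TC signals of 3.89 and 3.64 and lay below the median of all probe sets, which was 5.36. PYK10, a beta-glucosidase of ER bodies that seedling hypocotyls also make, had a TC signal of 10.48. The PL and NP arrays had medians between 4.90 and 5.0, except that the NP array of replicate 2 had 4.65. The median TL of replicate 2 was 0.15, against -0.01 in replicate 1 and -0.02 in replicate 3. Over all probe sets TL correlated at r = 0.87 between replicates 1 and 3, and at 0.77 for each pair with replicate 2. Since 1 NP array stood apart, counts are given below with and without replicate 2.

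Of 22746 probe sets, 1121 were called high and 844 low, with at least a 2-fold difference and a limma adjusted p under 0.05. These were 4.93% and 3.71% of all probe sets, and 8.64% together. Among the 11375 probe sets with a TC signal at or above its median, 9.36% were high and 6.1% were low. All 1121 high probe sets had a positive TL in 3 of 3 replicates, and 843 of 844 low ones had a negative TL in all. The low side reached further. TL was -2 or less at 96 low probe sets and 2 or more at 56 high ones. The median SD of TL was 0.22 in the high and 0.20 in the low probe sets, against 0.21 over all probe sets. Calls rest on the same 3 values, so the common sign and this SD are no separate measure of agreement. Without replicate 2, 961 were called high and 906 low, and 905 of the 1121 and 764 of the 844 kept their call. The weakest high call had a TL of 1.00 and the strongest value that just missed it 0.999, so the calls divide a continuous range.

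**Figure D1:**
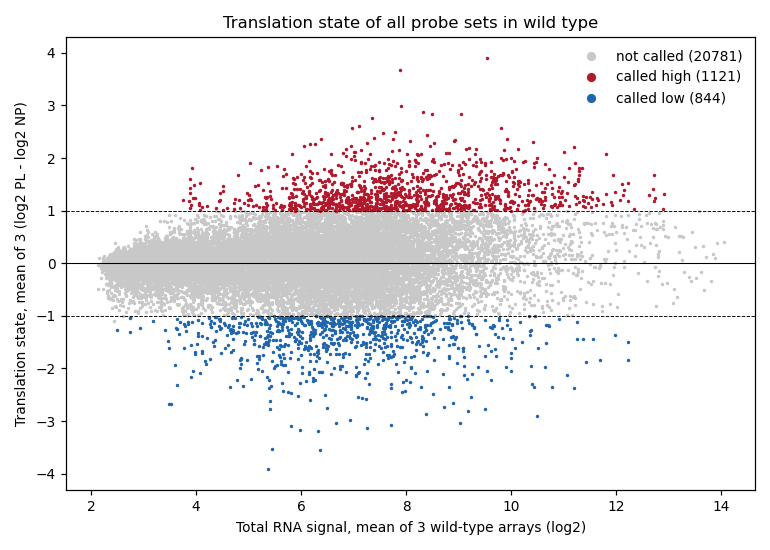
Translation state (y axis, log2 PL minus log2 NP, mean of 3 wild-type replicates) of all 22746 probe sets against their total RNA signal (x axis, log2, mean of 3 arrays). Red points are the 1121 probe sets called high and blue points the 844 called low; dashed lines mark 2-fold, and probe sets with a dim signal lie close to 0.

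The highest and lowest mRNAs were named by rule, from 972 called probe sets of a single gene with a TC signal at or above the median. At the top, TL of the 12 named genes was between 2.27 and 3.90, and at the bottom it was between -3.55 and -2.63. On all 24 the 3 PL arrays lay entirely on one side of the 3 NP arrays. Such a separation upward held for 22.4% of all probe sets and downward for 17.8%. At or above the median TC signal these shares were 35.6% and 25.3%. Since the genes were chosen by the size of TL on these arrays, their separation is no further support. The 24 had TL values with an SD between 0.09 and 0.63 and limma adjusted p-values between 4.77e-05 and 0.000134.

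The most highly loaded mRNA came from AT1G64370, a gene without a symbol in the reference. Its PL signals were 10.80, 10.64 and 10.75 and its NP signals 7.12, 6.38 and 6.98. The fractions did not overlap, and TL was 3.68, 4.27 and 3.77, a mean of 3.90 ± 0.32 (SD, n = 3) or 15-fold. RAB18 followed, a dehydrin that accumulates under drought and abscisic acid. It had PL signals of 8.51, 7.77 and 8.30 and NP signals of 5.52, 3.56 and 4.48. Its TL was lowest in replicate 1 (2.98) and highest in replicate 2 (4.21), a spread wider than at the other 23 named genes, and the mean was 3.67 ± 0.63. Its NP signals averaged below the median signal of the PL and NP arrays, 4.92, and were not shown to be above background, so no fold is given. LTI30, a further dehydrin of cold and drought, had a TL of 2.31, 2.07 and 2.44, with NP signals that were likewise below 4.92 in all 3 samples.

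The other highly loaded genes had various roles. CYS1, a cystatin that inhibits cysteine proteases, had a TL of 2.38, 2.80 and 1.85, so that its replicates differed by more than those of most of the 12. DR4, which the reference names for its repression by drought, had a TL of 2.45, 3.17 and 2.91 and a mean of 2.85 ± 0.36 (7.19-fold). PRPL11, the nuclear gene for L11 of the plastid ribosome, had PL signals of 9.78, 9.76 and 9.83 against NP signals of 7.34, 7.0 and 7.30. These fell within a narrow range in each fraction, and the mean TL was 2.58 ± 0.17. AT5G64110, annotated in the study's lists as a member of the peroxidase superfamily, had a TL of 2.01, 2.64 and 2.18. Its NP signals of 3.77, 3.17 and 3.63 were all below 4.92 and were not shown to be above background. The remaining 5 genes, AT4G19200, AT4G34290, AT5G45350, AT1G18210 and AT1G04800, had mean TL values from 2.36 to 3.0 and no symbol in the reference. The NP signals of AT1G04800 averaged 4.93, close to the median signal of the PL and NP arrays.

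The most poorly loaded of the named genes was AT3G27340, whose product the study's lists call an unknown protein. Its PL signals were 5.74, 5.42 and 5.09 and its NP signals 9.07, 9.12 and 8.71, which gave a TL of -3.33, -3.70 and -3.62 and a mean of -3.55 ± 0.19 (11.7-fold). AT5G20700 behaved alike, with a TL of -3.09, -3.28 and -3.02. AT1G65370, a TRAF-like gene, had a TL of -3.25, -3.44 and -2.90. All these PL signals were between 4.90 and 6.03, near the median of the PL arrays, whereas the NP signals were between 7.81 and 9.24.

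DI19, drought-induced 19, encodes a zinc-finger protein. It had PL signals of 8.81, 8.52 and 8.25 against NP signals of 11.40, 11.67 and 11.21, and a mean TL of -2.90 ± 0.28. EBP, the ethylene response factor ERF72, had a TL of -2.54, -3.06 and -2.80. DI21, drought-induced 21, had a TL of -2.5, -2.96 and -2.81. Both organelle genomes were represented as well. psbN, a plastid gene whose product is needed for assembly of photosystem II, had a TL of -2.60, -3.56 and -3.35, and ATMG01370, a mitochondrial reading frame, had -3.15, -3.02 and -2.96. Of the rest, RPP0A encodes the P0 protein of the acidic ribosomal stalk, with a mean TL of -3.10. Its PL signals averaged 4.79, below the median signal of the PL and NP arrays, 4.92, and were not shown to be above background. AT1G53030 is annotated as a copper chaperone of cytochrome c oxidase and had a mean TL of -2.63. AT5G47435 and AT5G43460 had means of -3.04 and -2.78.

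**Figure D2:**
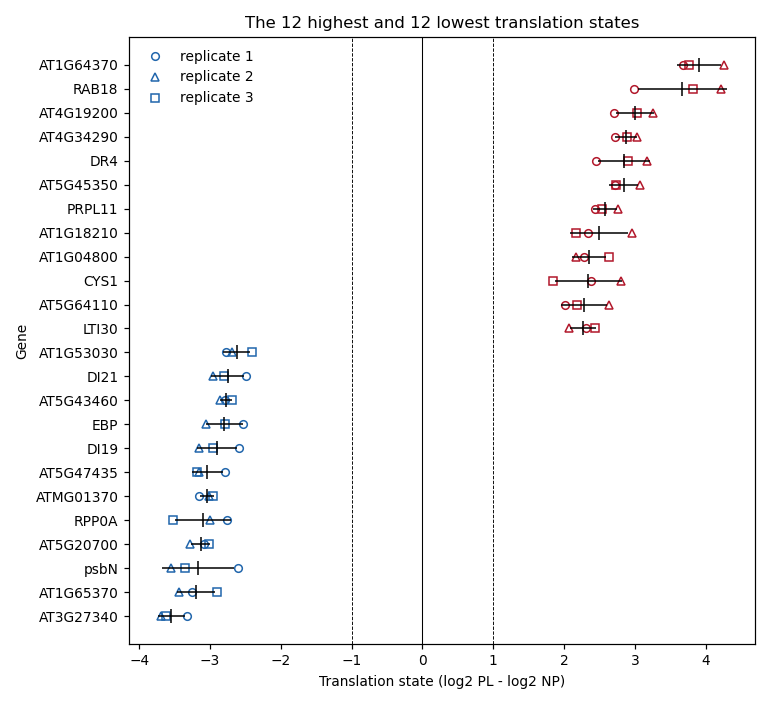
Translation state (x axis, log2 PL minus log2 NP) of the 12 highest (red) and 12 lowest (blue) named genes in wild type, 1 row per gene. Open symbols are the 3 replicates, the black tick is their mean and the bar the SD; the highest row is AT1G64370 at 3.90 and the lowest AT3G27340 at -3.55, and the replicate closest to 0 is that of CYS1 at 1.85.

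Gene lists were then described by their counts and medians. Beside the counts stand the shares of all probe sets, 4.93% high and 3.71% low. At or above the median TC signal these shares were 9.36% and 6.1%. The median TL of all probe sets was 0.03, and it was 0.10 for those at or above the median in TC. A list stands for its named members only, since many listed genes could not be matched to a probe set here.

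Core histones, the proteins that pack DNA into nucleosomes, were mostly well loaded. Of 19 probe sets 15 were high and 1 was low, with a median TL of 1.49 that differed little between replicates (1.5, 1.68 and 1.47). Several probe sets are shared by a group of histone genes, whose members cannot be told apart here. The 5 probe sets for the replication-linked histone H3.1 (HTR1, HTR2, HTR3, HTR9 and HTR13) were all high, at 1.35 to 2.23. The highest of them had PL signals of 7.98, 7.87 and 7.98 against NP signals of 5.82, 5.53 and 5.78. The 3 probe sets for the replacement histone H3.3 (HTR4, HTR5 and HTR8) lay close together at 1.54 to 1.6. Of 5 for H4, 3 were high, and of 5 for H2B, 4 were high, with HTB2 the highest at 1.85 ± 0.28. HTA9 was on the other side. It encodes the H2A.Z variant, which replaces H2A at gene starts, and had PL signals of 10.17, 9.96 and 9.90 against NP signals of 11.15, 11.29 and 10.80. The PL arrays were all lower, and TL was -1.07 ± 0.23, or -0.94 and no longer called without replicate 2.

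Tubulins and actins, the subunits of microtubules and actin filaments, had a median TL of 1.00 over 9 probe sets, of which 4 were high. TUB7 was the highest with a TL of 1.53, 1.38 and 1.99, followed by the probe set of TUA3 and TUA5 with a mean of 1.18. TUB1 (1.07) and ACT11 (1.04) were high too, but TUB1 lost its call without replicate 3 and ACT11 without replicate 2. TUA6 went the other way, with a TL of -0.84, -0.98 and -0.56 that missed the 2-fold minimum.

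All 4 probe sets of the list for cold and drought response were high. COR47, a dehydrin, had PL signals well above NP in every sample and a TL of 2.32, 2.15 and 2.07. COR15B and COR15A, proteins that protect plastid membranes in the cold, had TL means of 2.07 ± 0.47 and 1.64 ± 0.21. The probe set shared by KIN1 and KIN2 was at the border with 1.00 ± 0.23, and its PL and NP arrays overlapped. It was at 0.87 and not called without replicate 2. The call was also lost with each array centred on its median (0.97), after quantile normalisation (0.84) and with PL and NP unpaired.

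The lists of nuclear genes for photosynthesis had medians above that of all probe sets, though few members passed 2-fold. Light harvesting and photosystem genes had 1 high and 0 low among 11 probe sets and a median TL of 0.51. PSBY, a small subunit of photosystem II, had a TL of 1.15, 1.57 and 1.15. PSAE2 and PSAN of photosystem I came next with means of 1.00 and 0.96 and were not called. The antenna genes LHCB4.1 and LHCA4 were lowest, with means of 0.07 and -0.25. In the Calvin cycle 1 of 5 was high, namely HCEF1, the plastid fructose-1,6-bisphosphatase, with 1.16 ± 0.22. PRK, the phosphoribulokinase, had 0.76 ± 0.11, and RCA and RPE had 0.38 and 0.26. In photorespiration 1 of 6 was high, GLDT, the T protein of glycine decarboxylase, at 1.35 ± 0.14. Chlorophyll synthesis held 2 high probe sets of 4. HEMB1, porphobilinogen synthase, had a TL of 1.53, 1.42 and 1.69, and GSA1, glutamate-1-semialdehyde aminotransferase, had 1.42, 1.41 and 2.5. CHLM, a methyltransferase later in the same pathway, had a mean of -0.48 and was not called.

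**Figure D3:**
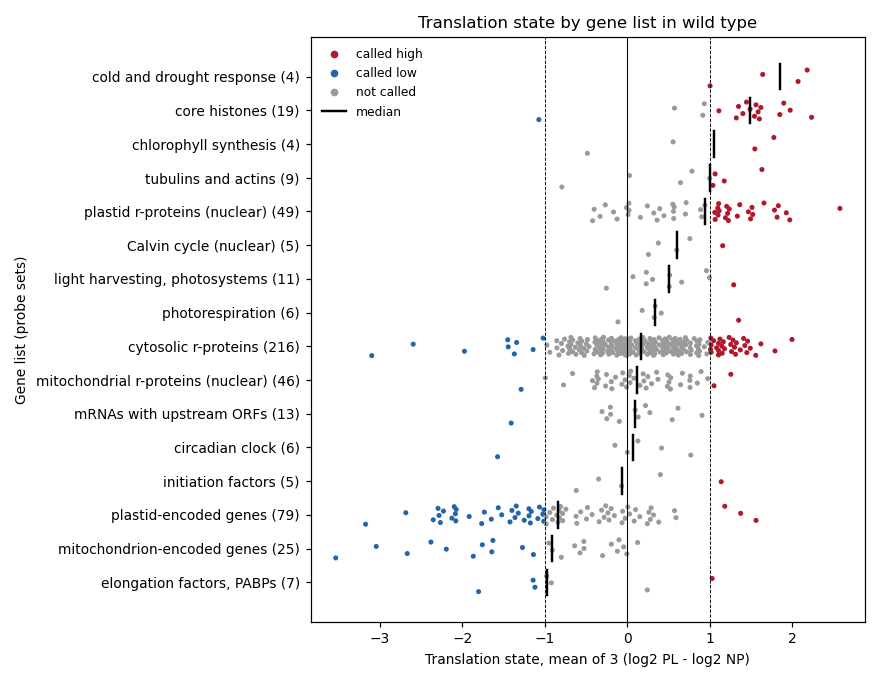
Translation state (x axis, log2 PL minus log2 NP, mean of 3 wild-type replicates) of the members of 16 gene lists, with the number of probe sets in brackets. Points are probe sets, red when called high, blue when called low and grey otherwise, and black bars are list medians, which run from 1.86 for cold and drought response to -0.98 for elongation factors and poly(A)-binding proteins.

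The machinery of translation itself was divided. Poly(A)-binding proteins, which bind the mRNA tail, were poorly loaded. PAB2 had PL signals near 9.25 and NP signals near 11.05 on average, and its TL was -1.75, -1.85 and -1.80, with an SD of only 0.05. PAB8 was low as well at -1.14 ± 0.19, and PAB4, at -0.98 ± 0.04, passed the adjusted p of limma but not 2-fold. The probe set for EF1BG, the gamma subunit of the exchange factor of elongation factor 1, was low at -1.12 ± 0.32, or -0.95 and not called without replicate 2. A probe set for the EF1B gene AT5G19510 had -0.92 ± 0.24, whereas that for AT5G12110 had 0.24 ± 0.05. The probe set shared by 4 genes for EF1A, the factor that delivers aminoacyl-tRNA, was high at 1.03 ± 0.28, but it was at 0.996 when each array was centred on its median and at 0.90 without replicate 3, both short of 2-fold. Over these 7 probe sets 1 was high and 3 were low. Among 5 initiation factors, EIF3G1, a subunit of the scaffold eIF3, was high at 1.14 ± 0.19. EIF3H and EIF3K, further subunits of eIF3, had -0.35 ± 0.31 and -0.62 ± 0.27 and were not called.

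Cytosolic r-proteins ranged in TL from -3.10 to 2.0. Of 216 probe sets 31 were high (14.4%) and 9 were low (4.17%), and the median TL was 0.16. Among all probe sets at or above the median TC signal the shares were 9.36% and 6.1%, but these are not matched to the list, of which 188 lay at or above that signal and whose own median TC signal was 9.46. PL and NP arrays did not overlap at 92 (42.6%) in the upward and 57 (26.4%) in the downward direction, against 35.6% and 25.3% of the probe sets with a TC signal at or above the median. The small subunit had 17 high and 3 low of 86 and the large subunit 11 high and 4 low of 114, with medians of 0.17 each, and this difference was not tested. Without replicate 2 the list had 26 high and 7 low. RPS3aA was the highest, with a TL of 1.94, 2.04 and 2.01. Its paralog RPS3aB had -0.40, -0.65 and -0.05 in the same samples, so that both members of the S3a family differed by 2.36 ± 0.31 (SD over 3 samples). The shared probe set of RPL41 genes, which encode the smallest r-protein, was low in every sample at -1.94, -1.91 and -2.07.

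Of 80 families of cytosolic r-proteins, 2 had members called both ways. In the S15a family RPS15aA had PL signals of 11.31, 11.28 and 11.19 against NP signals of 12.77, 12.76 and 12.61, a TL of -1.45 ± 0.03. RPS15aF had the reverse, with PL signals of 10.26, 9.93 and 10.34 and NP signals of 9.01, 8.72 and 8.87, a TL of 1.31 ± 0.14. The difference between these paralogs was 2.70, 2.69 and 2.89 in the 3 samples. RPS15aB and RPS15aE were high too, and RPS15aC and RPS15aD were not called. In the S12 family RPS12C was high, with a TL of 0.85, 1.21 and 1.19, and RPS12B, which the reference lists as a transcribed pseudogene, was low with -2.66, -2.25 and -2.87. RPS12A had -0.71 ± 0.21. In the P0 family RPP0B, with -1.44 ± 0.06, was low beside RPP0A, RPP0D had -0.68 ± 0.36, and RPP0C had 0.34 ± 0.20. The paralogs were picked with their values in view, so the differences between them are a description. The highest of the S15a family was RPS15aB, with a mean TL of 1.79. Its NP signals averaged 4.52, below the median signal of the PL and NP arrays, 4.92, and were not shown to be above background. RPL24A and RPL24B, the cytosolic L24 genes, had nearly equal values of 1.02 ± 0.21 and 1.01 ± 0.17, at the very border of the call. Without replicate 2 they had 0.90 and 0.92 and were not called. RPL24C had 0.31 ± 0.37.

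**Figure D4:**
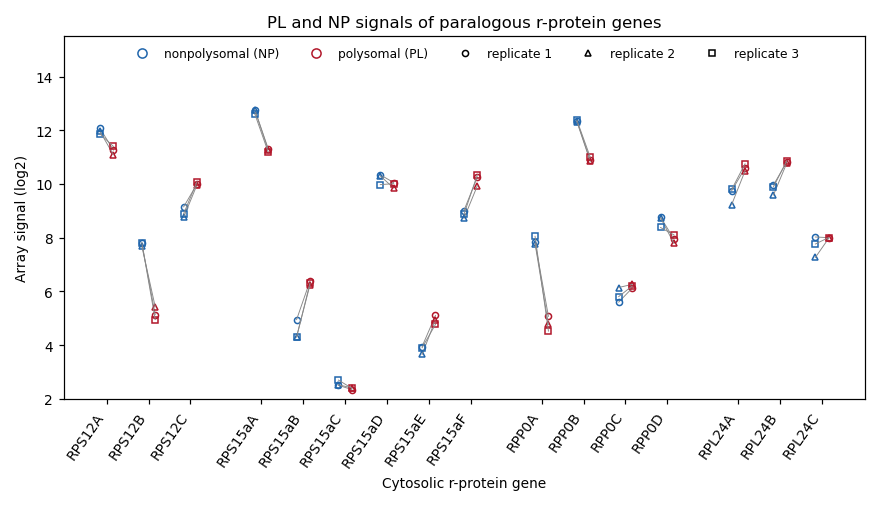
Signals (y axis, log2) of r-protein genes in the S12, S15a, P0 and L24 families on the 3 NP (blue) and 3 PL (red) arrays of wild type. Each grey line joins the NP and PL arrays of 1 plant sample, so that a rising line is a positive TL; the lines of RPS15aA fall by 1.45 on average and those of RPS15aF rise by 1.31.

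Ribosomal proteins of plastids are encoded in part by the nucleus and in part by the plastid, and the lists were described separately. Of 49 probe sets for nuclear genes 24 were high (49%) and 0 were low, and the median TL was 0.94. At 34 of them (69.4%) all PL arrays were above all NP arrays. Of the 49, 45 had a TC signal at or above the median of all probe sets. Among all probe sets at or above that median, 9.36% were high and 35.6% had PL entirely above NP. These are not matched to the list, whose own median TC signal was 10.53, against 7.09 among them. Beside PRPL11, the highest were pRPL35 with a TL of 1.81, 2.32 and 1.78, pRPS17 with 1.82, 2.21 and 1.75, and PSRP-3 with 1.86, 2.0 and 1.63. These 3 are subunits of the plastid ribosome made in the cytosol and imported. At the other end pRPS16 had a TL of -0.40, -0.44 and -0.36, and a probe set for pRPL18N (AT3G20230) had -0.72, -0.27 and -0.27, and neither was called. Without replicate 2 the list had 21 high and 0 low. Of 23 probe sets for plastid-encoded r-proteins 1 was high and 7 were low, with a median of -0.43. Nuclear-encoded r-proteins of mitochondria had a median near that of all probe sets (0.12), with 2 high (4.35%) and 1 low (2.17%) among 46. These shares do not exceed those of all probe sets, 4.93% and 3.71%. The high ones were mRPL15 (1.26 ± 0.21) and mRPL35 (1.05 ± 0.43, or 0.81 and not called without replicate 2), and the low one was a probe set for mRPL12 (-1.29 ± 0.31).

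Transcripts encoded by the organelles themselves had list medians below that of all probe sets, although fewer than 50% of each list were called low. Of 79 plastid-encoded probe sets 3 were high and 33 were low (41.8%), with a median TL of -0.84. Of 25 mitochondrion-encoded ones 0 were high and 11 were low (44%), with a median of -0.91. Among all probe sets 3.71% were low, and 6.1% at or above the median TC signal. The 6 mitochondrial probe sets with a TC signal at or above the median of all were all low, with a median of -2.12. These mRNAs are translated by the organelles' own ribosomes, and whether such polysomes stay whole in this gradient was not tested. The study states that its arrays favour mRNAs with a poly(A) tail, which in organelles precedes degradation. The values may therefore not stand for all copies of an organelle mRNA. The study proposes that such tailed mRNAs stay substantially loaded in wild-type chloroplasts. The plastid list was less low in replicate 1 (median -0.51) than in replicates 2 and 3 (-1.03 and -0.96). Without replicate 2, 28 plastid-encoded probe sets were low and 3 high, and 12 mitochondrion-encoded ones were low.

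The plastid-encoded probe sets were also described by complex, a division made after the values were seen and not tested. Of 6 genes of the cytochrome b6f complex, which links the photosystems, 5 were low and the median was -1.72. petG was the lowest with a TL of -1.72, -3.54 and -2.79, a wide spread in which replicate 1 lay apart. petA, for cytochrome f, was the exception with 0.42, -0.45 and 0.05. Of 5 photosystem I genes 3 were low. psaC had a TL of -1.93, -2.13 and -2.16 and psaJ had -1.75, -2.69 and -2.35. psaA, for a core subunit of the same photosystem, was high, with PL signals of 6.25, 5.81 and 6.44 and NP signals of 4.69, 4.15 and 4.99. These NP signals lay near or below the median signal of the PL and NP arrays, 4.92, and were not shown to be above background. psaB, the other core subunit, had -0.23 ± 0.16. Photosystem II had 5 low of 15 with a median of -0.85, and psbA, for the rapidly renewed D1 protein, was low with -1.56, -2.42 and -2.39. ATP synthase had the highest median of the complexes, -0.01 over 6 probe sets, of which atpI was high at 1.18 ± 0.29 and atpF low at -1.19 ± 0.87. Without replicate 2 the low call of atpF was lost. rbcL, the large subunit of Rubisco, had -0.43, -1.43 and -1.17. Its mean of -1.01 was called, but it was -0.80 and not called without replicate 2, and it also lost the call without replicate 3. clpP, for a subunit of the Clp protease, had a TL of -2.01, -2.40 and -2.64.

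**Figure D5:**
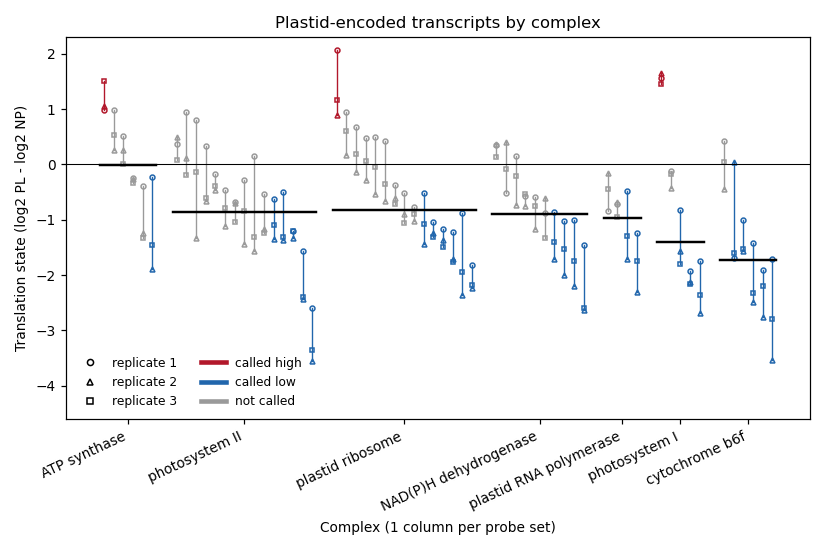
Translation state (y axis, log2 PL minus log2 NP) of plastid-encoded transcripts grouped by complex, 1 column per probe set with its 3 wild-type replicates joined by a line. Red columns were called high, blue low and grey not called, and black bars are the medians of the complexes, from -0.01 for ATP synthase to -1.72 for cytochrome b6f.

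Among mitochondrial transcripts cox1, for a core subunit of cytochrome c oxidase, had PL signals that averaged 4.22 against NP signals of 6.60 and a TL of -2.47, -2.0 and -2.67. That PL average lay below the median signal of the PL and NP arrays, 4.92, and was not shown to be above background. nad4, a subunit of complex I, had -1.51, -1.85 and -2.24. The probe set shared by rps3 and rpl16 had the lowest mean of the list, at -3.53 ± 0.52. The 7 probe sets for nad1, which sample different stretches of the same gene, ranged from -2.67 to 0.13. Only 6 of the 25 had a TC signal at or above the median of all probe sets.

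In the lists of upstream open reading frames and of the clock 1 of 13 and 1 of 6 probe sets were called, against 8.64% of all, and nothing is read from counts this small. mRNAs with upstream open reading frames, which can hold back ribosomes from the main coding sequence, had 0 high and 1 low of 13 and a median of 0.10. The low one was BZIP53, a transcription factor whose leader carries a sucrose-sensing upstream frame, with a TL of -1.2, -1.37 and -1.65. NMT2, an enzyme of phospholipid synthesis, was the highest with 0.91 ± 0.17 and was not called. SAMDC1, a decarboxylase of polyamine synthesis, had -0.10 ± 0.15. Of 6 clock probe sets 1 was low, that of FKF1, a blue-light receptor of flowering time, at -1.57 ± 0.43. It also matches a pair of other loci. CCA1 and LHY, the morning factors, had 0.13 ± 0.09 and 0.77 ± 0.46 and were not called, and GI had 0.00 ± 0.01.

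Further small lists held a single high call and 0 low. These had 3 probe sets for cytosolic glycolysis, 4 for the proteasome and 3 for metallothioneins and lipid transfer proteins. There were also 4 for mitochondrial ATP synthase, carriers and cytochrome c, and 1 for aquaporins and proton pumps. CTIMC, the cytosolic triose phosphate isomerase, was high with 1.21 ± 0.09, whereas PGI1C and GAPC2 of glycolysis had 0.72 and 0.04 and were not called. CYTC-2, a cytochrome c, was high with 1.53 ± 0.29, whereas its paralog CYTC-1 had 0.41 ± 0.11 and was not called. LTP6, a lipid transfer protein, had 1.42 ± 0.07, PIP1C, a plasma membrane aquaporin, had 1.33 ± 0.28, and PBC1, a subunit of the 20S proteasome, had 1.11 ± 0.16. The chaperones HSC70-3 and HSP81-2 had nearly equal values, 0.86 ± 0.12 and 0.86 ± 0.29, and were not called. Annotated pseudogenes were mostly dim, with 14 at or above the median TC signal. They had 0 high and 9 low probe sets (0.901%), against 3.71% low among all probe sets. Their median TC signal was 2.87, so these 2 shares are not matched in signal. Of the 14 brighter ones 4 were low, against 6.1% of all probe sets at or above the median TC signal. Nothing is read from a count this small.

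The 3 rpl24b samples, which took no part in choosing these calls, had TL values of the same sign at 1119 of the 1121 high and 832 of the 844 low probe sets. In a fit of their own 829 and 624 were called the same way, and 0 the other way. No share over all probe sets is given beside these counts of sign and call, so nothing is read from them. Between genotypes 18 of the high and 44 of the low probe sets differed with a limma adjusted p under 0.05, against 204 of all 22746 (0.897%). With at least a 2-fold difference as well they were 13 and 33, against 138 of all (0.607%). The probe sets were chosen by the wild-type values that enter this difference, so nothing is read from these counts against the background. Genotype and ecotype cannot be told apart if the wild type was Col-0.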

How the data were processed

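RNA of 18 ATH1 arrays in 6 groups of 3 was described by the labels, and the 6 wild-type PL and NP arrays were used, with the wild-type TC and rpl24b arrays beside them. Signals were extracted by the authors by RMA in the affy package of R/Bioconductor, so the deposited values are log2 signals per probe set, whose depth is not a count. Their number of arrays limits the precision. The deposited values already carry the authors' normalisation, which hides any global shift between PL and NP. Tool versions and a genome build are not given in the sources used here. Another 6 deposited columns, the authors' TL values, were not used, and TL was computed anew.

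TL was tested against 0 with limma 3.58.1 (lmFit with an intercept, eBayes) in R 4.3.3 over all 22746 probe sets, with Benjamini-Hochberg adjustment. Calls needed an adjusted p under 0.05 and 2-fold. PL and NP of 1 replicate number come from the same gradient, so the numbers pair the arrays. Deviations from the group means correlated at 0.31, 0.19 and 0.28 for same-numbered arrays and at -0.24 to -0.04 for others. The 3 replicates were grown at different times. The method was tested on simulated data with changes added to 200 probe sets. Tables and figures were made with Python.

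Of the probe sets, 14016 took a gene from the list of the platform, 89 from the published r-protein catalogues and 456 from the study's gene lists, and 8185 stayed unnamed here. RefSeq gave symbols and gene types. Named genes were the 12 highest and 12 lowest called probe sets of 1 locus with a plain probe set ID, the same sign in 3 replicates and a TC signal at or above the median. Added to these were the 2 highest and 2 lowest members of each list, RPL24A, RPL24B, RPL24C and families called both ways, from which the text takes those that describe each group. Further genes that describe a group, the complexes of the plastid genome, families that share a symbol and the share called among brighter probe sets were picked with their values in view. The members and lists were chosen with earlier results of these data known. No set test and no resampling was used. Alternatives were another scaling, no pairing, other estimates of the spread, filters, thresholds and leaving out each replicate.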

Additional observations from a re-analysis of the deposited data

Results flagged for a closer look

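Of the 24 genes named at both ends, 3 had a translation state that differed between the genotypes in limma's test of the difference, with adjusted p-values over all probe sets. DR4 was high in wild type and less so in rpl24b, where its TL was 1.51, a difference of -1.34 (adjusted p = 0.0168). AT1G65370, low in wild type, had a TL of -1.16 in rpl24b and differed by 2.04 (adjusted p = 0.00199). RPP0A, which had a TL of -3.10 in wild type, had -0.13 in rpl24b, a difference of 2.96 (adjusted p = 0.00101). Its wild-type PL signals were not shown to be above background, so the size of this difference is uncertain. The genes were chosen for extreme wild-type values, which also enter the difference, and all 3 differences go towards 0, the direction that such a choice favours.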

How the results depend on the processing

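The 24 genes named at both ends kept their call under each alternative fit in which they were tested. They were chosen for the most extreme TL on these same arrays, well beyond the 2-fold border. Their kept calls are therefore no measure of how firm the calls are in general. With each array centred on its median, 1025 probe sets were high and 918 low, and with quantile normalisation over the 6 arrays 909 were high and 990 low, so that the share of high among all calls went from 57% to 52.8% and 47.9%. Without the replicate block, that is with PL and NP unpaired, 1116 were high and 840 low, and a spread shared with rpl24b or estimated with trend and robust gave 1121 high and 844 or 845 low. Probe sets at or above the median signal gave 1056 high and 742 low. Probe sets of 1 locus with a plain ID, which were 13727, gave 561 high and 547 low, and 50.6% of these calls were high. With no fold minimum 3883 were high and 3079 low, and with limma's treat against 1.2-fold 2357 were high and 1742 low. Leaving out 1 replicate gave 961 to 1299 high and 858 to 906 low.

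The median TL of core histones was 1.34 after quantile normalisation. That of nuclear-encoded plastid r-proteins was 0.80 after quantile normalisation and 1.06 for the brighter probe sets. The median of mitochondrion-encoded genes was -0.94 after centring, -2.19 over the 7 brighter probe sets, -0.95 over the 19 of 1 locus, and -0.88 to -0.77 with 1 replicate left out. The cause of these shifts was not tested. Medians close to 0 turned their sign under some alternatives, as for mRNAs with upstream open reading frames (-0.15 to 0.10). The planned description by length of the encoded protein was not run, as the reference used here gives none. The RMA scale compresses dim signals, the lists hold few of their genes, and 8185 probe sets have no name here, which limits how far a list speaks for its pathway.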

Other observations

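Families of genes that share the letters of their symbol, with at least 10 probe sets, were mostly close to a TL of 0. Of 23 such families 21 had a median within 0.3 of 0. Calls in a family stand beside 4.93% high and 3.71% low among all probe sets, and nothing is read from such small counts. VPS genes, which encode proteins of vacuolar sorting, had the highest median of these families at 0.76, with 3 high and 1 low of 10. VPS2.1 had a TL of 1.64, 1.51 and 1.49, VPS24.1 had 1.53, 1.82 and 1.23, and VPS46.2 had 1.03, 1.35 and 0.96. These 3 encode subunits of ESCRT-III, which buds vesicles into endosomes. VPS9B, an activator of a Rab GTPase, had -1.09, -0.82 and -1.2 and was low. Genes with the letters PRA, most of them for prenylated Rab acceptors of the secretory pathway, had a median of 0.55 with 2 high and 0 low of 11. PRA1.F1 had 1.12 ± 0.26 and PRA1.B1 had 1.04 ± 0.28. The letters of a symbol define these families and not a shared origin.

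Ubiquitin-conjugating enzymes ran from one end to the other. UBC8 had a TL of -2.16, -2.52 and -2.38 and UBC28 had -1.77, -2.35 and -1.81, both low. UBC29 was high with 0.90, 1.9 and 1.13. The median of the 15 probe sets was 0.02. Of 8 bZIP transcription factor probe sets, BZIP9 had -2.45, -2.88 and -2.63 and was low beside BZIP53, whereas BZIP17 and BZIP28, which sit in the ER membrane, had means of 0.33 and 0.07.

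NAI2, which is needed to form ER bodies, had a TL of 1.96, 2.09 and 2.18, and PYK10, their main enzyme, had 1.42, 1.1 and 1.11. In both, PL lay above NP in every sample, but the pair was picked with its values in view and nothing is read from it. PYK10 is also one of the root markers read above.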
